A study of Mus musculus with 12 samples.

Results

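Transcripts of 10 genes of the Wnt pathway were examined in the polyA+ RNA-seq of mouse embryonic stem cells (ESC) depleted of *Srrm2*. The genes were chosen by symbol: *Ctnnb1*, *Apc*, *Tcf7*, *Tcf7l1*, *Tcf7l2*, *Lef1*, *Axin2*, *Sp5*, *Nkd1* and *Cdx1*. All 10 were found among the 42450 genes of the count table, and all 10 were among the 19410 genes that passed the filter on low counts. The cells were wild type (WT) and of the male line E14tg2a.4, a single cultured line, kept in medium with LIF and moved to serum-free ESGRO medium with LIF for the experiment. They received 50 nM siRNA against *Srrm2* (Srrm2-KD), a scaffold protein of nuclear speckles and of the spliceosome, or 50 nM siRNA against the luciferase gene Gl2 as the control (Gl2-KD), both with Lipofectamine RNAiMAX. Libraries were made 24 h after transfection, or at 72 h from cells transfected again with the same siRNA. The 2 siRNAs and 2 time points were each covered in 3 independent experiments, which gave 12 libraries. Time in culture, exposure to serum-free medium and the second transfection cannot be told apart in a comparison of 72 h with 24 h.

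In the canonical Wnt pathway, a Wnt ligand bound to Frizzled and LRP receptors stops the destruction complex, built on Axin and APC, from marking β-catenin for degradation. β-catenin then enters the nucleus and binds the TCF/LEF factors, which otherwise sit on target genes with corepressors. In mouse ESC the pathway supports self-renewal, where TCF7L1 acts mainly as a repressor of pluripotency genes and TCF7 and LEF1 mainly as activators in partnership with β-catenin. *Axin2*, *Sp5*, *Nkd1* and *Cdx1* are known direct target genes, and *Axin2* and *Nkd1* encode feedback inhibitors of the pathway.

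TCF/LEF factors bind DNA at sites with the core CTTTGAT or CTTTGAA. These letters were searched on both strands (ATCAAAG and TTCAAAG in reverse) in windows from 250 bases before to 50 bases after each transcription start in RefSeq (GRCm38.p6). CTTTGAT was present in 3.73% and CTTTGAA in 5.14% of the 32851 windows of all genes. Windows were held for 8 of the 10 genes, 14 windows in all, and only that of *Sp5* contained CTTTGAT, while 0 contained CTTTGAA. The 250 bases before the starts of *Sp5* and *Axin2* are shown because these were the target genes whose levels were lower at 72 h in every experiment with both siRNAs. They lie on the forward strand at chr2:70474673-70474922 and chr11:108920099-108920348, and capitals mark the motif, which begins 104 bases before the *Sp5* start. A match describes the letters only, and the *Axin2* window holds neither core.
Sp5 upstream region: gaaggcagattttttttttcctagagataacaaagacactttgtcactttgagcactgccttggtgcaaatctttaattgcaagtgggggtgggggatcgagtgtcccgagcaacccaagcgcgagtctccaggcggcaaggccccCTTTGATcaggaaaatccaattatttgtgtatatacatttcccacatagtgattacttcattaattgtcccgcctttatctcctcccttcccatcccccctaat
Axin2 upstream region: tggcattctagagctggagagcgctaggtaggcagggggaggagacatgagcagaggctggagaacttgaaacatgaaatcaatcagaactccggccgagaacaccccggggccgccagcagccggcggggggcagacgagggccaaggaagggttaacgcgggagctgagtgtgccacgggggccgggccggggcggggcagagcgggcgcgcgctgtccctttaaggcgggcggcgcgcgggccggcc

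The 12 libraries held 73933196 to 153343831 rounded estimated counts. *Srrm2* was at 442 to 962 CPM (counts per 1000000 counts of the TMM-scaled library) in Gl2-KD and at 154 to 517 CPM in Srrm2-KD. Over both time points the transcript fell by 1.19 on the log2 scale, with a standard error of 0.10, and it was lower in 6 of 6 pairs of libraries from the same experiment and time point (Benjamini-Hochberg adjusted p = 0.00254 in edgeR's quasi-likelihood test). The call was lost without experiment 2 or experiment 3 (adjusted p = 0.0899 and 0.102 in edgeR). A gene is termed called where this adjusted p, taken over all genes tested, was below 0.05. At each time point alone the target of the siRNA was not called (adjusted p = 0.0663 at 24 h and 0.0991 at 72 h in edgeR), so a gene with no call at 1 time point cannot be taken as equal between the siRNAs. The 7 ESC markers summed to 3953 to 6589 CPM in a library, and the 5 markers of primitive endoderm to 1.34 to 3.53 CPM, with *Gata6*, *Sox17* and *Pdgfra* below 1 CPM throughout. The 6 markers of primitive streak and mesoderm, some of which are Wnt target genes, summed to 3.53 to 9.23 CPM, with *Mixl1*, *Gsc* and *Mesp1* below 1 CPM in every library. The 3 neuroectoderm markers summed to 45.2 to 62.8 CPM. The 4 trophectoderm markers summed to 46.0 to 95.3 CPM, of which *Cdx2*, *Elf5* and *Hand1* were below 1 CPM in every library. In RNA from bulk cultures, fewer cells that express a gene and less RNA per cell cannot be told apart.

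Levels of different genes were compared per kb of merged exon length. This length counts all annotated exons of a gene, not those of the transcripts expressed. The order of genes and the shares of a sum rest on that choice. *Ctnnb1*, which encodes β-catenin, was the highest of the 10 genes, with a mean of 104 CPM per kb over the 12 libraries. *Tcf7* followed at 28.3, *Tcf7l1* at 13.2 and *Apc* at 6.28 CPM per kb. *Lef1* at 2.59, *Axin2* at 2.39 and *Sp5* at 1.62 CPM per kb formed a middle group, and *Tcf7l2* at 0.564, *Nkd1* at 0.368 and *Cdx1* at 0.153 CPM per kb were lowest. Most neighbours in this order kept their places within a library: each gene exceeded the next in 10 to 12 of the 12 libraries. The exception was *Lef1*, which exceeded *Axin2* in only 5 of 12 libraries, so that these neighbours could not be ordered.

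**Figure D1:**
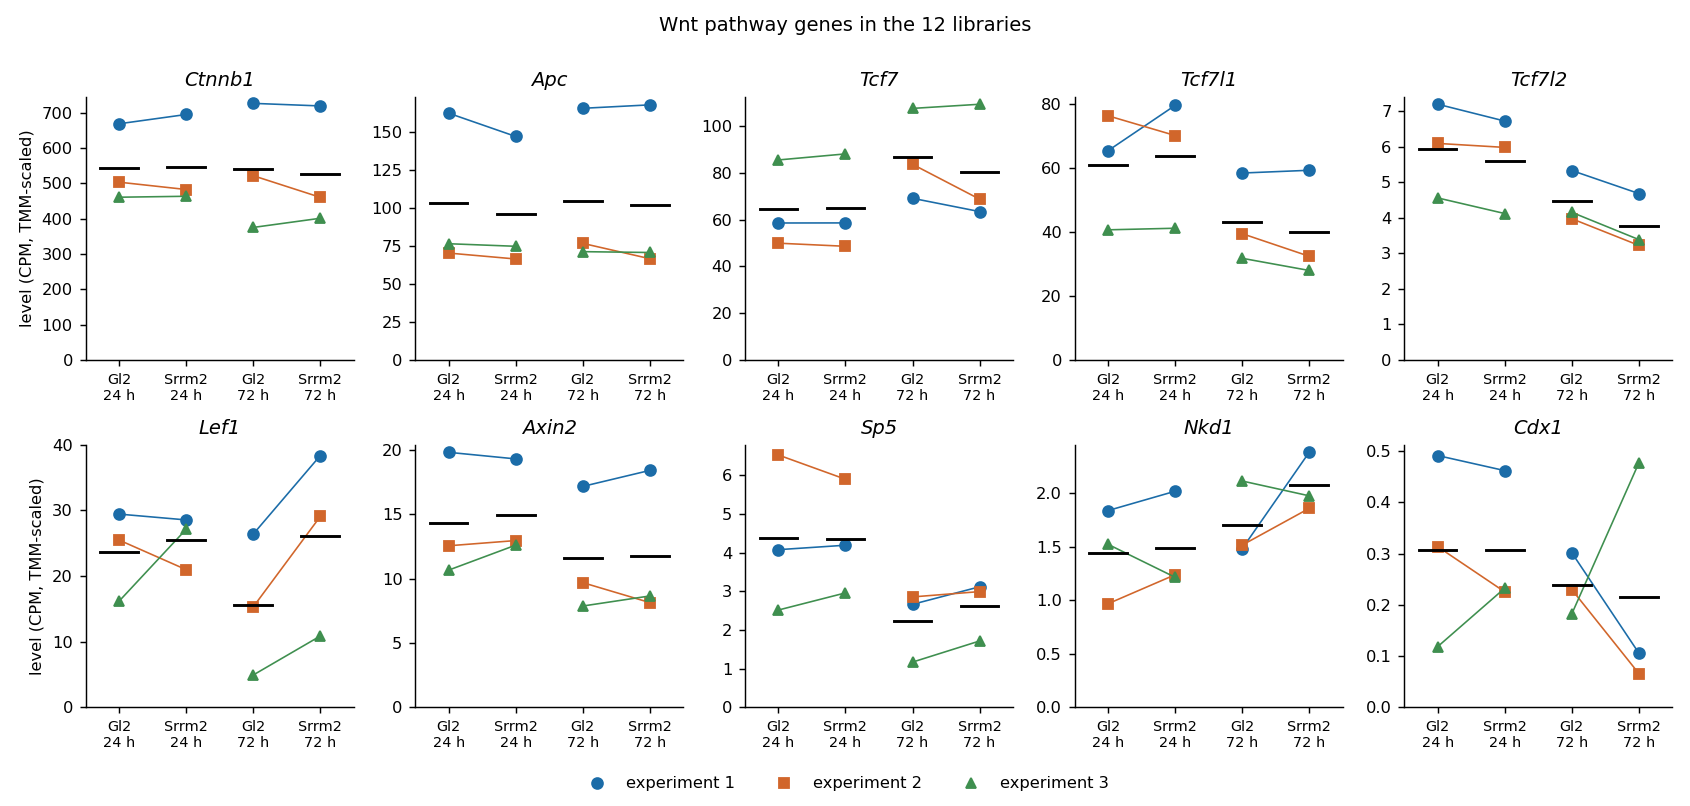
Levels of the 10 Wnt pathway genes in CPM (TMM-scaled, linear axes from 0) in Gl2-KD and Srrm2-KD at 24 h and 72 h. Points are libraries, coloured by experiment, thin lines join the pair of libraries of 1 experiment and time point, and black bars are the means of 3 libraries. The lines are nearly flat for *Ctnnb1*, *Apc* and *Axin2*, all 3 rise for *Lef1* at 72 h, and the experiments lie far apart for most genes.

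The main question of the study was what *Srrm2* depletion changes. Among the Wnt pathway genes no transcript was called between Srrm2-KD and Gl2-KD at either time point in edgeR, and the largest fitted difference was that of *Lef1*, with higher values in Srrm2-KD at 72 h. At 24 h, 0 of 10 genes were called in edgeR (0% of all 19410 genes were called) and 0 had an unadjusted p below 0.05 (2.62% of all genes). At 72 h, 0 of 10 were called (0% of all genes) and 1, *Lef1*, had an unadjusted p below 0.05 (12.9% of all genes). DESeq2 and limma-voom also called 0 of the 10 at both time points, although they called 24 and 2 genes in all at 24 h, and 535 and 4 at 72 h. The median log2 difference of the 10 genes was 0.02 at 24 h and -0.05 at 72 h, beside 0.01 and -0.02 for all genes tested. For 8 of the 10 genes the 95% interval of the difference lay within 1 on the log2 scale at each time point, and *Lef1* and *Cdx1* were the exceptions at both.

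*Ctnnb1* (ENSMUSG00000006932, chromosome 9 from 120929216 to 120960507 in GRCm38) gave the narrowest limits after *Apc*. Its levels in experiments 1, 2 and 3 were 669, 504 and 461 CPM in Gl2-KD and 696, 483 and 464 CPM in Srrm2-KD at 24 h. The 72 h libraries held 727, 522 and 375 CPM in Gl2-KD and 719.8, 461 and 401 CPM in Srrm2-KD. Experiment 1 was highest in every group, experiments 2 and 3 were closer to each other, and the groups overlapped. The log2 difference was 0.00 (95% interval -0.22 to 0.22) at 24 h and -0.04 (-0.26 to 0.18) at 72 h.

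*Apc* (ENSMUSG00000005871, on chromosome 18) encodes the large scaffold of the destruction complex. Its levels were 162, 70.2 and 76.3 CPM in Gl2-KD and 147, 66.3 and 74.6 CPM in Srrm2-KD at 24 h, and 165, 76.6 and 71.1 CPM against 168, 66.5 and 70.6 CPM at 72 h. *Apc* was lower in Srrm2-KD in 5 of 6 pairs, by small amounts. The log2 difference was -0.08 (95% interval -0.28 to 0.11) at 24 h and -0.07 (-0.26 to 0.13) at 72 h.

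*Lef1* (ENSMUSG00000027985, chromosome 3 from 131110471 to 131224356) encodes a TCF/LEF factor that mostly activates target genes. At 24 h its levels in experiments 1, 2 and 3 were 29.4, 25.5 and 16.2 CPM in Gl2-KD and 28.6, 21 and 27.1 CPM in Srrm2-KD. By 72 h the levels were 26.4, 15.3 and 4.93 CPM in Gl2-KD and 38.3, 29.1 and 10.9 CPM in Srrm2-KD. At 72 h every Srrm2-KD library thus lay above its control in *Lef1* (3 of 3 experiments, as for 18.8% of all genes), and at 24 h 1 of 3 did. The levels of the groups overlapped at 72 h because the experiments differed, with experiment 3 lowest with both siRNAs. The log2 difference at 72 h was 0.81 (standard error 0.36, 95% interval 0.03 to 1.6), with an unadjusted p of 0.0425 and an adjusted p of 0.369 in edgeR's quasi-likelihood test. *Lef1* was called when the 72 h libraries were fitted alone (log2 difference 0.86, adjusted p = 0.0259 in edgeR), and when each experiment had its own block at each time point (0.86, adjusted p = 0.0384 in edgeR), a setting chosen after the data were seen. Over all settings its value lay between 0.47, without the Gl2-KD 72 h library of experiment 3, and 1.17, without that of experiment 1.

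At 24 h the log2 difference of *Lef1* was 0.23 (standard error 0.35), and it turned to -0.43 without the Srrm2-KD library of experiment 3. The difference between the siRNA effects at the 2 time points was 0.58 (standard error 0.50, adjusted p = 1 in edgeR), so the effect was not shown to differ between 24 h and 72 h. None of the 10 genes was called in this comparison (0% of all genes), and 0 had an unadjusted p below 0.05 (1.64% of all genes). Over both time points the log2 difference of *Lef1* was 0.52 (standard error 0.25, adjusted p = 0.395 in edgeR), in a comparison that called 0 of the 10 genes and 0.067% of all genes, and in which 0 of the 10 and 13.6% of all genes had an unadjusted p below 0.05. Of the 4 markers of formative pluripotency, *Fgf5*, *Otx2*, *Pou3f1* and *Dnmt3b*, 0 were called between the siRNAs at 72 h in edgeR. They summed to 533 to 706 CPM in Srrm2-KD and 362 to 492 CPM in Gl2-KD at 72 h. All 4 had fitted values above 0, as did 9292 of all 19410 genes, and 2 had an unadjusted p below 0.05 (12.9% of all genes). The summed trophectoderm markers, nearly all of them *Tfap2c*, were at 46.0 to 72.0 CPM in Srrm2-KD and 85.0 to 95.3 CPM in Gl2-KD at 72 h. Of these 4 trophectoderm markers 0 were called in edgeR, 2 had fitted values above 0 and 2 below. An unadjusted p below 0.05 in edgeR was found for 1 of the 4, beside 12.9% of all genes. The part of these markers in the *Lef1* difference was not tested.

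The other TCF genes showed smaller differences between the siRNAs. *Tcf7l2* (ENSMUSG00000024985, chromosome 19 from 55741820 to 55933654), a factor best known from intestinal stem cells, was at 7.19, 6.09 and 4.55 CPM in Gl2-KD and 6.72, 5.97 and 4.12 CPM in Srrm2-KD at 24 h. At 72 h it was at 5.32, 3.97 and 4.15 CPM in Gl2-KD and 4.68, 3.22 and 3.38 CPM in Srrm2-KD. *Tcf7l2* was the only gene of the 10 that was lower in Srrm2-KD in 6 of 6 pairs, as were 7.25% of all genes, and none of the 10 was higher in 6 of 6 (7% of all genes). The log2 difference was -0.26 at 72 h (standard error 0.18, adjusted p = 0.568 in edgeR) and -0.09 at 24 h (standard error 0.17), and the groups overlapped at both time points.

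*Tcf7* and *Tcf7l1* differed little between the siRNAs, by -0.13 (standard error 0.12) and -0.14 (standard error 0.17) on the log2 scale in the 72 h libraries and by 0.00 and 0.04 in the 24 h libraries. Each was higher in 3 and lower in 3 of the 6 pairs. Among the target genes, *Axin2* had a log2 difference of 0.00 at 72 h (95% interval -0.31 to 0.32) and of 0.09 at 24 h (-0.23 to 0.40). *Sp5* was higher in Srrm2-KD in 5 of 6 pairs, with a log2 difference of 0.28 at 72 h (standard error 0.21, adjusted p = 0.604 in edgeR).

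*Nkd1* (ENSMUSG00000031661, chromosome 8 from 88521354 to 88594884), which encodes an inhibitor of Dishevelled, was scarce. Its levels were 0.969 to 1.84 CPM in Gl2-KD and 1.22 to 2.02 CPM in Srrm2-KD at 24 h, and 1.48 to 2.12 and 1.86 to 2.39 CPM at 72 h. The log2 difference at 72 h was 0.27 (standard error 0.26). *Cdx1* (ENSMUSG00000024619, on chromosome 18), a homeobox gene of the posterior embryo and gut, had 5 to 75 counts in a library. Its interval at 72 h ran from -1.82 to 1.43 on the log2 scale, and the sign of its fitted value changed with the library left out. The differences within experiments 1, 2 and 3 at 72 h were -1.17, -1.27 and 1.18, so no direction could be stated.

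**Figure D2:**
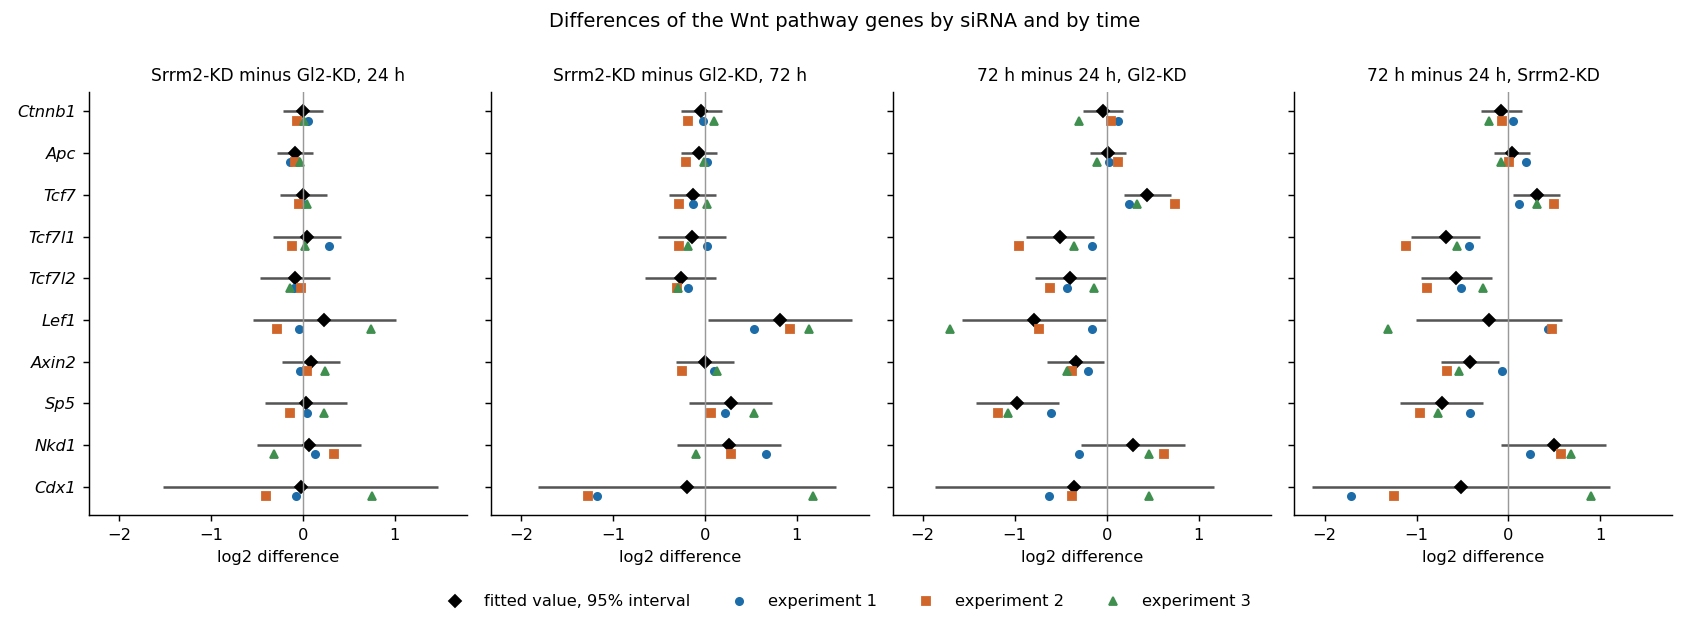
Log2 differences of the 10 genes between the siRNAs at 24 h and 72 h and between the time points with each siRNA. Black diamonds and bars are edgeR's fitted values with 95% intervals, and coloured symbols are the differences within each experiment. The bars of the siRNA comparisons cross 0 except for *Lef1* at 72 h, and the bars of *Tcf7*, *Tcf7l1*, *Tcf7l2*, *Axin2* and *Sp5* lie to 1 side of 0 in both comparisons over time.

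The comparison of 72 h with 24 h asked how the pathway genes moved over the course of the experiment with each siRNA. *Sp5* fell with the control siRNA. With both siRNAs *Tcf7l1*, *Tcf7l2* and *Axin2* had lower and *Tcf7* higher values at 72 h, without passing the test across all genes in edgeR. In Gl2-KD, 1 of 10 genes was called, with lower values at 72 h, and 1.45% of all genes were called, 0.706% with lower values. An unadjusted p below 0.05 was found for 6 of the 10, of which 1 was higher and 5 lower, beside 16.8% of all genes. In Srrm2-KD, 0 of 10 were called and 0.551% of all genes were called, and 5 of the 10 had an unadjusted p below 0.05, with 1 higher and 4 lower, beside 16.3% of all genes. The time comparisons of the 2 siRNAs share no library. The median log2 difference of the 10 genes was -0.35 in Gl2-KD and -0.32 in Srrm2-KD, beside 0.02 and 0.00 for all genes tested.

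*Sp5* (ENSMUSG00000075304, chromosome 2 from 70474923 to 70477729) encodes a zinc finger factor that is switched on by β-catenin in many tissues. Its levels at 24 h were 4.08, 6.53 and 2.52 CPM in Gl2-KD and 4.20, 5.90 and 2.96 CPM in Srrm2-KD. At 72 h these levels were 2.67, 2.86 and 1.17 CPM in Gl2-KD and 3.12, 3.00 and 1.72 CPM in Srrm2-KD. Every experiment was lower at 72 h with both siRNAs, although the levels of the time points overlapped across experiments. In Gl2-KD *Sp5* fell by 0.97 on the log2 scale, with a standard error of 0.21 and an adjusted p of 0.0485 in edgeR's quasi-likelihood test. In Srrm2-KD the log2 difference was -0.73 (standard error 0.21, adjusted p = 0.127 in edgeR). The call in Gl2-KD was lost without any 1 of the experiments (adjusted p = 0.0553 to 0.607 in edgeR) and when the experiments were not paired as blocks (log2 difference -0.97, adjusted p = 1 in edgeR). It was lost when any 1 of the 6 Gl2-KD libraries was left out, with adjusted p-values of 0.0578 to 0.263 in edgeR and log2 differences of -1.10 to -0.82, and also without the Srrm2-KD libraries of experiment 2 at 24 h and of each experiment at 72 h. DESeq2 called *Sp5* in both comparisons (adjusted p = 0.000134 and 0.013).

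*Axin2* (ENSMUSG00000000142, chromosome 11 from 108920349 to 108950783) encodes a scaffold of the destruction complex and is the most widely used readout of the pathway. Its levels at 24 h were 19.8, 12.6 and 10.7 CPM in Gl2-KD and 19.3, 13.0 and 12.6 CPM in Srrm2-KD. The later libraries were at 17.2, 9.69 and 7.88 CPM in Gl2-KD and 18.4, 8.14 and 8.66 CPM in Srrm2-KD. All 6 pairs were lower at 72 h, by amounts smaller than the gap between experiment 1 and the other experiments. The log2 difference was -0.34 (standard error 0.14, adjusted p = 0.261 in edgeR) in Gl2-KD and -0.42 (standard error 0.14, adjusted p = 0.186 in edgeR) in Srrm2-KD.

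*Tcf7l1* (ENSMUSG00000055799, chromosome 6 from 72626378 to 72789254), the main repressor among the TCF factors of ESC, was at 65.3, 76.2 and 40.6 CPM in Gl2-KD and 79.5, 70.1 and 41.1 CPM in Srrm2-KD at 24 h. Later, at 72 h, it was at 58.4, 39.4 and 31.7 CPM in Gl2-KD and 59.2, 32.4 and 27.9 CPM in Srrm2-KD. It was lower at 72 h in all 6 pairs, and experiment 2 had the largest step with both siRNAs. The log2 difference was -0.50 (standard error 0.17, adjusted p = 0.158 in edgeR) in Gl2-KD and -0.68 (standard error 0.17, adjusted p = 0.101 in edgeR) in Srrm2-KD.

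*Tcf7* (ENSMUSG00000000782, chromosome 11 from 52252371 to 52283014), which encodes TCF1, was on the other side. Its levels at 24 h were 58.6, 49.9 and 85.5 CPM in Gl2-KD and 58.6, 48.6 and 88.1 CPM in Srrm2-KD. Those at 72 h were 69.1, 83.6 and 108 CPM in Gl2-KD and 63.4, 68.7 and 109 CPM in Srrm2-KD. *Tcf7* was higher at 72 h in all 6 pairs, and experiment 3 was highest in each group. The log2 difference was 0.44 (standard error 0.12, adjusted p = 0.0865 in edgeR) in Gl2-KD and 0.31 (standard error 0.12, adjusted p = 0.227 in edgeR) in Srrm2-KD.

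*Tcf7l2* was also lower at 72 h in all 6 pairs, with log2 differences of -0.39 (standard error 0.17, adjusted p = 0.285 in edgeR) in Gl2-KD and -0.57 (standard error 0.18, adjusted p = 0.153 in edgeR) in Srrm2-KD. Thus 1 of the 10 genes, *Tcf7*, was higher at 72 h in all 6 pairs, as were 8.92% of all genes, and 4 of the 10, *Tcf7l1*, *Tcf7l2*, *Axin2* and *Sp5*, were lower in all 6, as were 7.96% of all genes. *Lef1* was lower at 72 h in 3 of 3 experiments in Gl2-KD, as were 16.2% of all genes (log2 difference -0.79, standard error 0.36, adjusted p = 0.297 in edgeR) and in 1 of 3 in Srrm2-KD (-0.21, standard error 0.36). *Ctnnb1* and *Apc* had log2 differences between -0.08 and 0.04 over time, with intervals inside 0.5 on the log2 scale with both siRNAs. *Nkd1* was higher at 72 h in 5 of 6 pairs, with log2 differences of 0.29 (standard error 0.26) and 0.49 (standard error 0.26).

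The markers of two-cell-like cells moved over the same interval. *Zscan4c*, *Zscan4d* and *Tcstv3*, the last of them below 1 CPM throughout, summed to 2.89 to 15.1 CPM at 24 h and to 1.57 to 5.0 CPM at 72 h. In edgeR 2 of the 2 markers tested were called in Gl2-KD and 1 of 2 in Srrm2-KD, all with lower values at 72 h. Of all genes 1.45% and 0.551% were called. The marker called with both siRNAs was *Zscan4d* (adjusted p = 0.0159 in Gl2-KD and 0.0445 in Srrm2-KD in edgeR). Both calls were lost with no block (adjusted p = 1), without experiment 1 (0.0605 and 0.0866) and without experiment 2 (0.521 and 0.653) in edgeR, and also without single libraries, among them those of experiments 1 and 2 at 24 h with the same siRNA (0.0805 to 0.254). The markers of primitive streak and mesoderm summed to 4.75 to 6.56 CPM at 24 h and 6.34 to 8.46 CPM at 72 h in Gl2-KD. Of the 5 tested there, 0 were called in edgeR and 2 had an unadjusted p below 0.05, beside 16.8% of all genes. In the same libraries the summed trophectoderm markers, nearly all of them *Tfap2c*, were at 59.7 to 74.3 CPM at 24 h and 85.0 to 95.3 CPM at 72 h. Of these 4 markers, 0 were called in edgeR, and 1 had a fitted value above 0 and 3 below. An unadjusted p below 0.05 in edgeR was found for 1 of the 4, beside 16.8% of all genes. In Srrm2-KD the streak and mesoderm markers summed to 3.53 to 6.62 CPM at 24 h and 5.38 to 9.23 CPM at 72 h, and the trophectoderm markers to 55.7 to 72.8 and 46.0 to 72.0 CPM. Neither list held a called gene there in edgeR. An unadjusted p below 0.05 was found for 1 of 5 streak and mesoderm and 0 of 4 trophectoderm markers, beside 16.3% of all genes. The part of these markers in the differences of the Wnt pathway genes was not tested.

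The make-up of the TCF/LEF family was described by the share of each gene in the summed CPM per kb of the 4 genes. *Tcf7* made up 56.3% ± 13.9 (SD, n = 3) of the sum in Gl2-KD at 24 h and 70.9% ± 11.6 at 72 h. *Tcf7l1* made up 35.9% ± 11.9 at 24 h and 24.0% ± 8.59 at 72 h. In Srrm2-KD the share of *Tcf7* was 55.1% ± 13.3 at 24 h and 68.7% ± 14.0 at 72 h, and that of *Tcf7l1* 36.9% ± 12.9 and 23.3% ± 10.1. The share of *Tcf7* was larger and that of *Tcf7l1* smaller at 72 h in every experiment with both siRNAs.

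The log2 ratio of *Tcf7* to *Tcf7l1* per kb shows the spread behind these means. In experiments 1, 2 and 3 it was 0.42, -0.03 and 1.65 at 24 h and 0.82, 1.67 and 2.34 at 72 h in Gl2-KD. In Srrm2-KD it was 0.14, 0.05 and 1.68 at 24 h and 0.68, 1.67 and 2.55 at 72 h. The ratio was above its 24 h value in all 6 pairs at 72 h, and experiment 3 at 24 h was already at about the level of experiment 2 at 72 h. *Lef1* supplied 6.24% ± 1.94 of the sum in Gl2-KD at 24 h and 3.92% ± 2.79 at 72 h, and 6.50% ± 0.46 and 7.01% ± 3.99 in Srrm2-KD. *Tcf7l2* supplied 0.765% to 1.90% in a library. The sum itself was 38.1 to 50.4 CPM per kb, with means of 43.5 to 46.3 in the 4 groups.

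**Figure D3:**
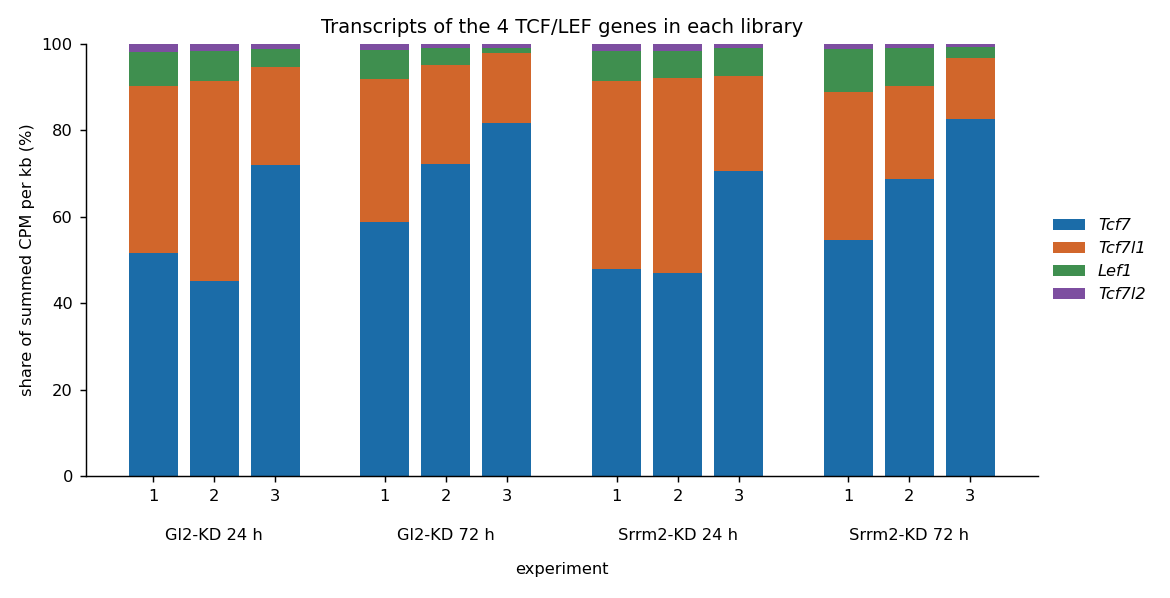
Share of *Tcf7*, *Tcf7l1*, *Lef1* and *Tcf7l2* in their summed CPM per kb (bars, percent) in each library, by group and experiment. The *Tcf7* part is larger at 72 h than at 24 h in each experiment with both siRNAs, and it ranges from 45.2% in experiment 2 at 24 h to 82.7% in experiment 3 at 72 h.

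The largest number of calls was found among the 3 independent experiments. In an F test of the experiment terms in edgeR, 8 of the 10 genes were called, and 58.5% of all genes were called. *Nkd1* (adjusted p = 0.169 in edgeR) and *Cdx1* (adjusted p = 0.621 in edgeR) were not called. *Apc* differed most clearly (adjusted p = 1.2e-06 in edgeR), with a mean log2 CPM in experiment 1 that was 1.17 above the mean of experiments 2 and 3. The same difference was 0.88 for *Lef1*, 0.87 for *Axin2*, 0.62 for *Ctnnb1* and 0.62 for *Tcf7l1*, and it was -0.31 for *Tcf7*. Experiment 3 lay 0.65 above the mean of experiments 1 and 2 for *Tcf7*, and 1.06 below it for *Lef1*, 0.96 below it for *Sp5* and 0.73 below it for *Tcf7l1* on the log2 scale. Without experiment 1, 3 of the 10 were called (*Tcf7*, *Tcf7l1* and *Sp5*), beside 17.8% of all genes. Without experiment 3, 4 were called (*Apc*, *Axin2*, *Ctnnb1* and *Lef1*), beside 43.6% of all genes, and without experiment 2 all 8 stayed called, beside 45.7%.

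Exon length moved with the difference of experiment 1. Over all genes tested with a length, the median log2 difference between experiment 1 and the mean of the other experiments was 0.02. It was -0.28 for genes with up to 1000 bp of merged exons and -0.42 between 1000 and 2000 bp, -0.18 between 2000 and 4000 bp, and it was 0.15 between 4000 and 8000 bp and 0.59 above 8000 bp. *Apc*, the longest of the 10 genes with 16116 bp, had the largest difference, and *Tcf7*, with 2625 bp, the lowest, while *Sp5*, with 2100 bp, was at 0.25. *Cdx1*, the shortest with 1750 bp, was at 0.53, and *Tcf7l1*, with 3924 bp, was at 0.62, both above the median of their length class. *Apc*, *Lef1*, *Axin2*, *Ctnnb1*, *Nkd1* and *Sp5* were also above the medians of their classes. *Tcf7*, at -0.31, and *Tcf7l2*, at 0.45 with 8775 bp, were below theirs. The part of length in these differences was not tested.

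**Figure D4:**
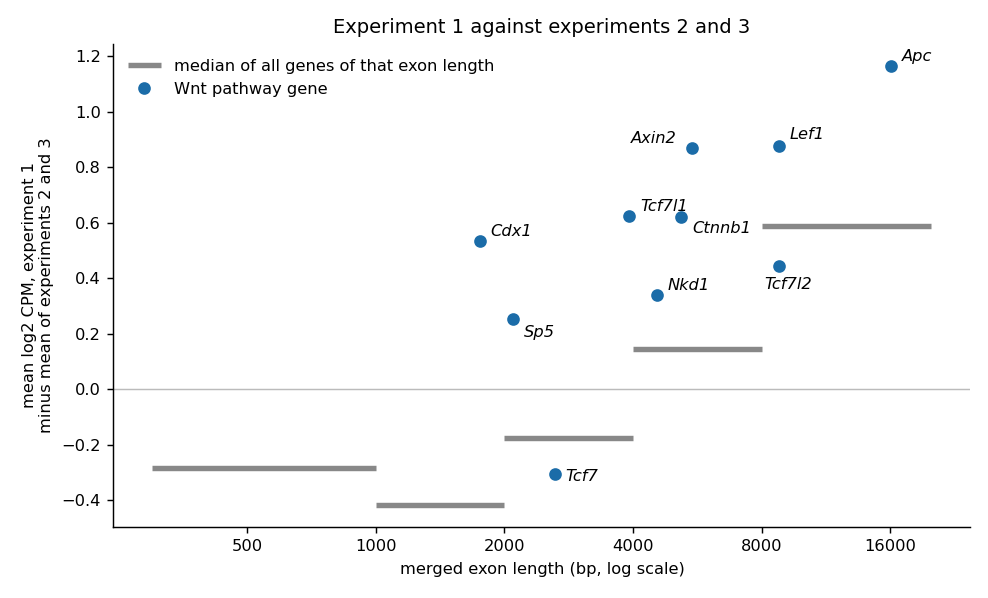
Mean log2 CPM in experiment 1 minus the mean of experiments 2 and 3 (vertical axis) against merged exon length in bp (log axis), with 1 point for each of the 10 genes. Grey bars are medians of all genes in 5 classes of length, and the outer ends of the first and last bar are open. The bars climb from -0.42 between 1000 and 2000 bp to 0.59 above 8000 bp, *Apc* at 16116 bp is highest at 1.17, and *Tcf7* is the only 1 of the 10 below 0.

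The rest of the pathway was followed through 106 other genes grouped by role, of which 98 were tested. Between the siRNAs 0 of the 98 were called at 24 h or at 72 h in edgeR, and 5 and 15 had an unadjusted p below 0.05, all 5 lower in Srrm2-KD at 24 h and 12 of the 15 lower at 72 h. These are 5.1% and 15.3% of the 98, beside 2.62% and 12.9% of all genes, and among all genes 285 of 508 and 1525 of 2498 such values were lower. Neither DESeq2 nor limma-voom called any in the 24 h libraries. In the 72 h libraries limma-voom called 0 and DESeq2 called 5, *Sfrp1*, *Lrp5*, *Dact3*, *Bcl9l* and *Tnfrsf19*. DESeq2 called 3.26% of all genes there. Over both time points edgeR called 0 of the 98, and 14 (14.3%) had an unadjusted p below 0.05, beside 13.6% of all genes. Of these 14, 12 were lower in Srrm2-KD. DESeq2 called 6 in that comparison, *Bcl9l*, *Gsk3a*, *Lrp5*, *Porcn*, *Sfrp1* and *Tnfrsf19*, and limma-voom called *Sfrp1*. They called 4.68% and 0.474% of all genes. The median log2 difference of the 98 genes in edgeR was -0.05 at 24 h and -0.10 at 72 h, beside 0.01 and -0.02 for all genes. In Gl2-KD 4 of the 98 were called between the time points, all lower at 72 h, and in Srrm2-KD 2 were called, 1 higher and 1 lower, which are 4.08% and 2.04% beside 1.45% and 0.551% of all genes. DESeq2 called 12 and 7 of them (7.41% and 6.42% of all genes) and limma-voom 5 and 4 (2.48% and 1.33% of all genes). Among the experiments 60 of the 98 (61.2%) were called, close to the 58.5% of all genes.

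Of the ligands, 14 of 19 were tested and *Wnt6* was called over time. It rose in Srrm2-KD from 0.992, 0.531 and 0.487 CPM at 24 h to 2.34, 1.36 and 2.01 CPM at 72 h, a log2 change of 1.54 (standard error 0.25, adjusted p = 0.0431 in edgeR). In Gl2-KD it was higher at 72 h in 3 of 3 experiments, with a log2 difference of 0.95 (standard error 0.25, adjusted p = 0.0881 in edgeR). The ligands with the smallest p between the siRNAs at 72 h were *Wnt7b*, at 1.66, 6.48 and 22.9 CPM in Gl2-KD and 0.598, 0.0264 and 6.23 CPM in Srrm2-KD (adjusted p = 0.245 in edgeR), and *Wnt3a*, at or below 0.354 CPM in every library. The Srrm2-KD value of *Wnt7b* in experiment 2 rests on 2 counts.

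*Porcn*, which encodes the acyltransferase that lipid-modifies Wnt ligands for secretion, fell in Gl2-KD from 23.8, 19.2 and 4.45 CPM at 24 h to 14.6, 7.71 and 2.89 CPM at 72 h. The log2 change was -0.89 (standard error 0.16, adjusted p = 0.0273 in edgeR), and in Srrm2-KD the difference was -0.41 (standard error 0.16, adjusted p = 0.236 in edgeR). *Notum*, a secreted enzyme that removes this lipid and a feedback inhibitor of the pathway, fell with both siRNAs. Its levels were 56.3, 55.5 and 32.4 CPM at 24 h and 36.5, 21.4 and 9.10 CPM at 72 h in Gl2-KD, and 52.1, 37.6 and 30.0 CPM and 25.0, 17.6 and 12.6 CPM in Srrm2-KD. The log2 changes were -1.24 (standard error 0.21, adjusted p = 0.0245 in edgeR) and -1.14 (standard error 0.21, adjusted p = 0.0467 in edgeR), with lower values at 72 h in all 6 pairs.

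Among 15 receptor genes 0 were called by siRNA or by time in edgeR. The smallest p at 72 h between the siRNAs was that of *Lrp5*, a Wnt coreceptor, which lay below its control in all 3 experiments (log2 difference -0.76, standard error 0.20, adjusted p = 0.184 in edgeR), followed by *Fzd10* (-0.32, standard error 0.18). *Lgr5* and *Rspo3* headed the R-spondin list with unadjusted p-values of 0.327 and 0.402 in edgeR. Both were scarce, *Lgr5* at 0 to 0.282 CPM and *Rspo3* at 0.0533 to 0.322 CPM in a library. Of 14 inhibitors tested, *Sfrp1*, a secreted Wnt antagonist, had the smallest p, at 70.9, 51.4 and 51.0 CPM in Gl2-KD and 35.1, 22 and 26.7 CPM in Srrm2-KD at 72 h. *Sfrp1* lay below its control in all 3 experiments, as did 23.1% of all genes. Its log2 difference was -1.05 (standard error 0.20, unadjusted p = 0.000242, adjusted p = 0.124 in edgeR). *Kremen2*, at 0.405 to 2.17 CPM in a library, came next with -0.52 (standard error 0.32).

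In the cytoplasmic part of the pathway 0 genes were called by siRNA or by time in edgeR. *Dact3* and *Dvl2* had the smallest p among the Dishevelled genes at 72 h between the siRNAs, with log2 differences of -0.53 (standard error 0.15) and -0.25 (standard error 0.10). *Gsk3a*, a kinase of the destruction complex, had -0.42 (standard error 0.12, adjusted p = 0.197 in edgeR), and *Csnk1e* had -0.41 (standard error 0.21). All 4 lay below their controls in 3 of 3 experiments, as were 23.1% of all genes. Of the nuclear cofactors, *Bcl9l*, a β-catenin adaptor, was at 5.24, 5.67 and 2.13 CPM in Gl2-KD at 72 h and at 2.20 CPM in experiment 1 in Srrm2-KD, and was listed at 0 in the other two (adjusted p = 0.231 in edgeR). The corepressor gene *Tle3* had a log2 difference of -0.42 (standard error 0.15, adjusted p = 0.281 in edgeR).

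The genes called among the adhesion partners and the other targets were *Cdh2* and *Myc*. *Cdh2*, which encodes N-cadherin, was at 18.4, 19.7 and 6.30 CPM at 24 h and 13.2, 5.63 and 2.44 CPM at 72 h in Gl2-KD. It fell there by 1.19 on the log2 scale, with a standard error of 0.26 and an adjusted p of 0.0498 in edgeR. *Myc*, a target gene shared by many pathways, fell in Gl2-KD from 49.6, 48.0 and 25.7 CPM to 25.0, 12 and 5.10 CPM, a log2 change of -1.73 (standard error 0.25, adjusted p = 0.0144 in edgeR). In Srrm2-KD the log2 differences were -0.91 (standard error 0.26, adjusted p = 0.124 in edgeR) for *Cdh2* and -1.18 (standard error 0.25, adjusted p = 0.0646 in edgeR) for *Myc*. Between the siRNAs at 72 h the smallest p of these lists belonged to *Jup* (log2 difference -0.30, standard error 0.10) and *Cdh1* (-0.23, standard error 0.09), and to *Tnfrsf19* (0.58, standard error 0.13, adjusted p = 0.144 in edgeR) and *Myc* (0.56, standard error 0.24). At 72 h *Myc* lay above its control in all 3 experiments, as *Lef1* did.

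In a further list of 6 pluripotency genes that TCF7L1 is known to repress, *Nr5a2* was called, and it fell in Srrm2-KD from 108, 80.2 and 55.1 CPM at 24 h to 73.3, 39.2 and 38.4 CPM at 72 h. The log2 change was -0.69 (standard error 0.12, adjusted p = 0.0467 in edgeR), and in Gl2-KD the difference was -0.48 (standard error 0.12, adjusted p = 0.0734 in edgeR). All 6 genes of this list had fitted values below 0 between the siRNAs at 72 h, with 0 called in edgeR, DESeq2 and limma-voom and 3 at an unadjusted p below 0.05 in edgeR. Of all genes 52.1% had fitted values below 0 and 12.9% such an unadjusted p. The smallest p belonged to *Tfcp2l1* (log2 difference -0.44, standard error 0.13, adjusted p = 0.206 in edgeR) and *Klf2* (-0.36, standard error 0.12). The median of the list was -0.27, beside -0.02 for all genes tested. Between the siRNAs over both time points DESeq2 called 1 gene of this list, *Tfcp2l1* (4.68% of all genes), and edgeR and limma-voom called 0.

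All 7 calls over time in these lists, 4 in Gl2-KD and 3 in Srrm2-KD, were lost with no block (adjusted p = 1 in edgeR), without experiment 2 (0.521 to 0.771) and without experiment 3 (0.0523 to 0.176). They were also lost without single libraries of the same siRNA, with adjusted p-values in edgeR of 0.0597 to 0.103 without experiment 1 at 24 h and of 0.116 to 0.263 without experiment 2 at 24 h or at 72 h. With the 6 libraries of 1 siRNA fitted alone, *Notum* and *Myc* in Gl2-KD stayed called (adjusted p = 0.0411 and 0.028 in edgeR), and the other 5 calls were lost. With all 12 libraries, DESeq2 and limma-voom each made all 7 calls, and each also called *Myc* in Srrm2-KD and *Nr5a2* in Gl2-KD. DESeq2 called 7.41% of all genes in Gl2-KD and 6.42% in Srrm2-KD, and limma-voom 2.48% and 1.33%.

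Each of these lists held genes called among the experiments, as were 58.5% of all genes. The share called ran from 28.6% of the ligands tested to 100% of the secretion and Dishevelled genes. It was below that of all genes for the ligands, the other targets (40%), and the R-spondin and inhibitor lists (50% each). Called genes included *Wnt7b*, *Wnt4*, *Wnt7a* and *Wnt6* among the ligands, *Porcn* and *Wls* for secretion, *Lgr4*, *Lgr6* and *Lgr5* among the R-spondin receptors, and *Fzd5*, *Lrp6*, *Fzd3* and *Fzd2* as the 4 smallest p of 12 called receptors. They also included *Sfrp2*, *Znrf3*, *Apcdd1* and *Notum* as the first of 7 inhibitors, *Tnks*, *Gsk3b*, *Amer1* and *Btrc* as the first of 8 destruction complex genes, and *Ep300*, *Tle4*, *Bcl9* and *Ctbp2* as the first of 10 cofactors. All 6 Dishevelled genes, *Dact3*, *Dvl3*, *Dact1*, *Nkd2*, *Dvl2* and *Dvl1*, were called. The remaining calls were *Ctnnd1*, *Cdh2*, *Cdh1* and *Ctnna1*, then *Dusp4*, *Myc*, *Sp8* and *Mixl1*, and *Tfcp2l1*, *Nr5a2*, *Esrrb*, *Nanog* and *Klf2*. The adjusted p-values of these genes in edgeR ran from 4.67e-07 to 0.0371.

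The genes with the pattern most like *Axin2* and *Tcf7l1* were found from log2 CPM centred on each gene's own mean over the 12 libraries. For *Axin2*, whose own root mean square deviation was 0.47, the smallest root mean square differences were those of *Kctd20* (0.09), *Pik3r4* (0.10), *Arid4a* (0.10), *Urb2* (0.11) and *Kdm2b* (0.11). For *Tcf7l1*, with a deviation of 0.51, they were those of *Igf2bp1* (0.12), *Mb21d2* (0.14), *Lgals3* (0.16), *2700081O15Rik* (0.16) and *Ddi2* (0.17). None of the 10 Wnt pathway genes was among these nearest genes. The closest of them to *Axin2* was *Ctnnb1* at 0.22, and the closest to *Tcf7l1* was *Tcf7l2* at 0.23. The values of a library share its depth and its experiment, so these measures describe the libraries and carry no test.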

How the data were processed

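The authors pseudo-aligned 100-bp paired-end reads of stranded polyA+ libraries to the GENCODE M24 transcriptome (mm10) with Kallisto 0.46.1 and deposited estimated counts per gene, not normalized. Counts were rounded, symbols, positions and merged exon lengths came from GENCODE M21 (294 of 42450 identifiers had no match), and promoter windows from RefSeq. In R 4.3.3 with edgeR 4.0.16, genes passing filterByExpr (minimum count 10) were scaled by TMM and fitted over 12 libraries with 4 group terms, blocked on the experiment (glmQLFit, legacy=TRUE). Called genes had a p below 0.05 after Benjamini-Hochberg adjustment across the 19410 genes. The study's covariate was the RNA processing day, which the sources used here do not tie to libraries. Standard errors follow from the fitted values and the test.

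The labels name 3 independent experiments, and the replicate number was taken as the experiment. After group means were removed, the 18 pairs of libraries with the same number correlated across genes at 0.219 to 0.676, and the 36 pairs of different groups and numbers at -0.564 to 0.201. Differences within an experiment used log2(CPM + 0.05). Alternatives were DESeq2 1.42.0, limma-voom 3.58.1, scaling by RLE or by totals, no filter, at least 10 counts in every library, legacy=FALSE, no block, the libraries of a comparison alone, and the removal of any 1 library or experiment. The fit was run on simulated counts that held no differences among experiments, so these could not test the block.

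The 10 genes, the lists by role and the markers were chosen with earlier results of these data known. Named besides the 10 genes were *Srrm2* and, from each list, every called gene if 6 or fewer were called, otherwise the 4 with the smallest p, and where none was called the 2 with the smallest p between the siRNAs at 72 h. The 5 most alike genes were named for *Axin2* and *Tcf7l1*. Markers named beside a result were chosen after their values were seen.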

Additional observations from a re-analysis of the deposited data

How the results depend on the processing

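In the comparisons of the siRNAs at 24 h, of both time points together and of the 2 effects with each other, 0 of the 10 genes were called under every alternative. At 72 h, 1 gene, *Lef1*, was called with the 72 h libraries alone and 1 when each experiment had its own block at each time point, chosen after the data were seen, and 0 under the other alternatives. Over time in Gl2-KD the count of 1 was 2 in DESeq2 (*Tcf7* and *Sp5*), 0 with no replicate block, 0 with these libraries alone, and 0 to 1 when a library or an experiment was left out. In Srrm2-KD it was 3 in DESeq2 (*Tcf7l1*, *Tcf7l2* and *Sp5*) and 0 with no replicate block and under every other alternative. Of the 8 genes that differed among experiments, 3 to 8 were called when a library or an experiment was left out, with 3 without experiment 1 and 4 without experiment 3. Counts over all genes varied widely. At 24 h the 0 calls became 24 in DESeq2, 2 in limma-voom, 1 with legacy=FALSE and 0 to 10 without 1 library or experiment. At 72 h the 0 became 535 in DESeq2, 4 in limma-voom, 5 with legacy=FALSE, 42 with no filter, 323 in the libraries alone, 724 with the blocks per time point and 0 to 55 without 1 library or experiment. Over both time points the 13 became 733 in DESeq2, 92 in limma-voom, 79 with legacy=FALSE, 25 with RLE factors, 123 with no filter, 93 with at least 10 counts in every library, 1124 with those blocks, 0 with no block and 0 to 288 without 1 library or experiment. Over time in Gl2-KD the 282 became 1298, 482 and 624 under the first 3 of these settings, 476 with at least 10 counts in every library, 158 in the libraries alone, 0 with no block and 0 to 387 without 1 library or experiment. In Srrm2-KD the 107 became 1053, 259 and 279, 212 with no filter, 176 with at least 10 counts in every library, 0 in the libraries alone, 0 with no block and 0 to 135. For the difference between the siRNA effects the 0 became 2 in DESeq2, and among the experiments the 11356 became 3387 to 11258 without 1 library or experiment. The median of all genes moved by less than 0.1 on the log2 scale with any scaling. Intervals reached 0.5 or more on the log2 scale for 8 of the 10 genes over time with each siRNA, and the causes of the differences between settings were not tested.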
